A study of Sus scrofa with 8 samples.

Results

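The chaperones and folding enzymes of the endoplasmic reticulum (ER) were followed in piglet hind-limb muscle, as HSPA5, HSP90B1, HYOU1, PDIA3, PDIA4, PDIA6, CALR and CANX. These 8 genes were chosen by name, and all probe sets that the platform annotation gives to them under a single symbol were taken, 18 of the 23999 on the array. All 8 genes had a probe set bright enough to be tested, among 5406 genes tested in all, and 13 of the 18 probe sets were tested. Where a gene had several, the one with the highest mean over the 8 arrays leads.

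Proteins that enter the ER fold with the help of lumenal chaperones, of lectin chaperones that bind their sugar chains, and of oxidoreductases that make and rearrange disulfide bonds. When unfolded protein builds up there, the unfolded protein response raises the transcription of many of these genes. In muscle fibres much of this membrane system is specialised as sarcoplasmic reticulum, the calcium store of contraction.

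The 4 corticosteroid arrays came from biceps femoris of female domestic piglets that were labelled with acute quadriplegic myopathy, sedated with isoflurane with morphine and ketamine as needed, mechanically ventilated for 5 days and given bolus doses of hydrocortisone. The 4 control arrays came from biceps femoris of female piglets with the same disease label, sedation and ventilation, whose labels name no corticosteroid. All animals also received fluids, glucose, streptomycin and benzylpenicillin. The protocol text of the control samples speaks of 4 piglets of 25.5 kg on average and adds an Escherichia coli endotoxin infusion, which their source label leaves out. That of the corticosteroid samples speaks of 8 piglets of 26.4 kg on average and of no endotoxin. A neuromuscular blocker is mentioned in the series design and tied there to no group. Corticosteroid, any endotoxin and any handling batch cannot be told apart from the group. Whether every array stands for a separate piglet is not stated, and p-values therefore reflect the spread among these 8 arrays only, part of which may be technical.

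The deposited values are log2 expression levels with array medians between 5.863 and 5.965. The corticosteroid columns of the deposited table were re-assigned to the probe IDs before the groups were compared. Over the rows concerned, the correlation of corticosteroid with control means across probe sets was 0.989 after the re-assignment and 0.0997 before it. Before it, 38.0% of probe sets and 4 of the 8 genes had an adjusted p under 0.05. The re-assignment moved 15 of the 18 probe sets described here, the lead probe sets of PDIA3 and PDIA6 not among them. Muscle fibre markers were high on every array: the summed linear signal of the 9 of 11 listed markers that had a probe set ran from 93200 to 99200 on corticosteroid arrays and from 84700 to 99900 on control arrays. The lowest of these sums was that of control replicate 2. Within that list, markers of slow fibres had lower means with corticosteroid (MYH7 -1.17, MYL2 -0.98 and TNNT1 -1.78). The fast-fibre troponins TNNT3 (0.66) and TNNC2 (0.43) and the creatine kinase CKM (0.10) had higher ones. TNNT3 (12.58) and TNNC2 (13.25) were lowest of the 8 arrays on control replicate 2. Without that array the differences were 0.44 for TNNT3, 0.25 for TNNC2 and 0.07 for CKM. Those of MYH7, MYL2 and TNNT1 were -1.14, -0.93 and -1.53. The groups did not overlap for any of these 6 genes. Of the 9 markers 3 were lower without overlap, against 2.02% of all genes, and 3 higher, against 3.40%. For CKM the gap was below rounding, with 13.99 on the lowest corticosteroid array and on the highest control array. MYLPF (0.13), TTN (-0.09) and DES (-0.08) overlapped. The adjusted p-values of the 6 genes in limma were 0.469 or more, and the part of fibre type in the ER gene levels was not tested. In whole muscle, fewer cells of a type and less RNA per cell cannot be told apart. The glucocorticoid receptor NR3C1 differed by -0.18 (SE 0.23) and its target FKBP5 by 0.45 (SE 0.47), with limma adjusted p-values of 0.794 and 0.739. FKBP5 read 11.15, 11.22, 11.25 and 9.62 on corticosteroid arrays, against 11.11, 9.26, 10.85 and 10.20 on control arrays, so corticosteroid replicate 4 lay below all controls but replicate 2.

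Of the 8 ER genes, 7 had lower means in corticosteroid-treated muscle and CALR a higher one, and none passed the test. The largest differences were those of the chaperones HSP90B1, HSPA5 and HYOU1, whose mean levels in treated muscle were 0.482, 0.535 and 0.538 times those in controls. Control replicate 2 had the highest level of all 8 arrays for 7 of the 8 genes, CALR being the exception. Without that array 5 of the 7 lower means came closer to the controls, and the differences of PDIA3 and PDIA6 changed sign.

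The groups were compared with limma, a linear model with a moderated variance, over 14361 probe sets, and p-values were adjusted by the Benjamini-Hochberg method over all of them. No probe set had an adjusted p under 0.05 (0% of 14361), and 1363 (9.49%) had an unadjusted p under 0.05. Among the 8 lead probe sets, 0 passed after adjustment and 2, those of HSP90B1 and HYOU1, were lower at an unadjusted p under 0.05, against 3.90% of all genes tested. None of the 8 was higher at that p, against 5.27% of all genes, and 0 of 8 were higher with no overlap between groups, against 3.40%. A lower mean was found for 7 of the 8 genes and for 46.0% of all genes, and a mean lower by 0.5 or more on the log2 scale for 5 of the 8 and for 8.86% of all genes. The median log2 difference over the 8 genes was -0.61, against 0.03 over all genes tested. The genes share arrays, so they are not 8 separate observations of the treatment.

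HSPA5 (BiP), the lumenal HSP70 that binds nascent chains and holds the stress sensors of the ER inactive, had log2 levels of 10.03, 9.49, 9.50 and 9.33 on corticosteroid arrays, against 9.91, 11.88, 10.34 and 9.83 on control arrays. Control replicate 2 stood far above the rest. Corticosteroid replicates 2, 3 and 4 lay below every control, and corticosteroid replicate 1 lay among them. The means were 9.59 ± 0.30 with corticosteroid and 10.49 ± 0.95 in controls (SD, n = 4 each). The log2 difference was -0.90 (SE 0.42, 95% interval -1.85 to 0.04), with a limma adjusted p of 0.533 and an exact two-sided permutation p of 0.0857. With 4 arrays against 4 the smallest exact p is 0.0286. Without control replicate 2 the difference was -0.44, which is 48.9% of its size with all arrays.

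HSP90B1 (GRP94), the HSP90 of the ER, which folds a small set of clients such as integrins and Toll-like receptors, had levels of 9.89, 10.19, 9.0 and 8.96 on corticosteroid arrays, against 10.05, 11.32, 10.57 and 10.32 on control arrays. The groups overlapped only through corticosteroid replicate 2, which lay above control replicate 1. Corticosteroid replicates 3 and 4 were about 1 log2 unit below the lowest control. The means were 9.51 ± 0.62 with corticosteroid and 10.56 ± 0.55 in controls (SD, n = 4 each), a difference of -1.05 (SE 0.36, 95% interval -1.85 to -0.25). The adjusted p in limma was 0.479 and the exact two-sided permutation p 0.0571. Among the members with lower means it kept the largest share of its difference without control replicate 2, at -0.80 (76.2%). The excess of that array over the other controls was smaller for CANX, at 0.83 log2 units against 1.00 for HSP90B1. A second HSP90B1 probe set gave -1.08 (SE 0.36, adjusted p = 0.479). On it the groups were separate by a hair, the highest corticosteroid array reading 9.786 and the lowest control array 9.790.

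HYOU1 (GRP170), a large HSP70 relative that exchanges nucleotide on HSPA5, had levels of 7.41, 7.35, 6.55 and 6.54 on corticosteroid arrays, against 7.43, 8.76, 7.70 and 7.54 on control arrays. It was the 1 gene of the 8 whose lead probe set did not overlap between the groups with corticosteroid lower, a state found for 2.02% of all genes tested. The margin was narrow, with 7.411 on the highest corticosteroid array and 7.434 on the lowest control array. Replicates 3 and 4 were again the lowest corticosteroid arrays and replicate 2 the highest control. The difference was -0.89 (SE 0.34, 95% interval -1.65 to -0.14), with an adjusted p of 0.482 in limma and an exact two-sided permutation p of 0.0286, the smallest possible. Without control replicate 2 it was -0.59 (66.3%).

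**Figure D1:**
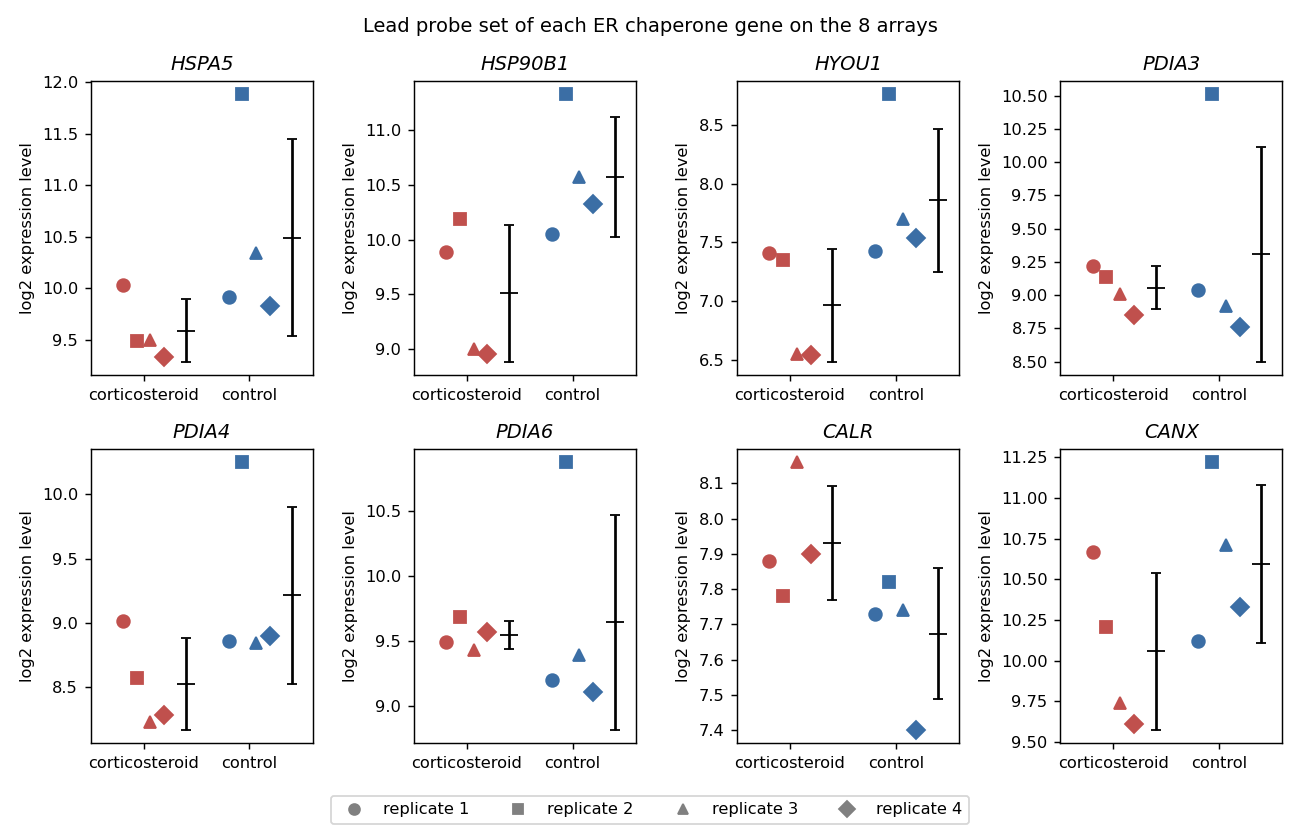
Log2 expression level (vertical axis, its own scale per panel, not starting at 0) of the lead probe set of each of the 8 genes on corticosteroid arrays (red, left) and control arrays (blue, right), 1 symbol shape per replicate number, with bars for mean ± SD (n = 4 each). Control replicate 2 (blue square) is the highest point in every panel but that of CALR, where corticosteroid replicate 3 reads 8.16.

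The 3 protein disulfide isomerases had smaller mean differences than the chaperones above, and whether genes differ from each other was not tested. PDIA4 (ERp72), a multi-domain thiol oxidoreductase, had levels of 9.01, 8.57, 8.23 and 8.28 on corticosteroid arrays, against 8.86, 10.25, 8.84 and 8.90 on control arrays. The controls other than replicate 2 lay within 0.07 log2 units of each other, and corticosteroid replicates 2, 3 and 4 were below all of them. The difference was -0.69 (SE 0.34, 95% interval -1.46 to 0.08, adjusted p = 0.543 in limma), and -0.35 (50.7%) without control replicate 2. Another bright PDIA4 probe set gave a smaller difference of -0.41 (SE 0.31).

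PDIA3 (ERp57), which works on glycoproteins held by calreticulin and calnexin, had levels of 9.22, 9.14, 9.01 and 8.85 on corticosteroid arrays, against 9.04, 10.51, 8.92 and 8.76 on control arrays. Apart from control replicate 2, at 1.61 log2 units above the mean of the other controls, the groups were intermixed. The difference was -0.25 (SE 0.36, 95% interval -1.06 to 0.55, adjusted p = 0.820 in limma). It was 0.15 without control replicate 2, and a second, dimmer probe set gave -0.16 (SE 0.31).

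PDIA6 (P5), an oxidoreductase that associates with HSPA5, had levels of 9.49, 9.68, 9.43 and 9.57 on corticosteroid arrays, against 9.20, 10.87, 9.39 and 9.11 on control arrays. All 4 corticosteroid arrays were above the controls other than replicate 2 and below replicate 2. With all arrays the difference was -0.10 (SE 0.36, 95% interval -0.90 to 0.71, adjusted p = 0.941 in limma), and without control replicate 2 it was 0.31 (SE 0.17, adjusted p = 0.642, the range over the settings tried being 0.642 to 0.974). For PDIA3 and PDIA6 the lower mean of treated muscle therefore came from 1 array.

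The lectin chaperones had mean differences of opposite sign. CANX (calnexin), the membrane-bound lectin chaperone, had levels of 10.67, 10.21, 9.74 and 9.61 on corticosteroid arrays, against 10.12, 11.22, 10.71 and 10.33 on control arrays. Corticosteroid replicate 1 lay above controls 1 and 4, corticosteroid replicate 2 above control 1, and corticosteroid replicates 3 and 4 lay below all controls. The difference was -0.53 (SE 0.30, 95% interval -1.21 to 0.14, adjusted p = 0.573 in limma), and -0.32 (60.4%) without control replicate 2.

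CALR (calreticulin), the soluble lectin chaperone and a calcium-binding protein of the ER lumen, ran the other way. Its levels were 7.88, 7.78, 8.16 and 7.90 on corticosteroid arrays, against 7.73, 7.82, 7.74 and 7.40 on control arrays. The groups overlapped only between corticosteroid replicate 2 and control replicate 2. The difference was 0.26 (SE 0.17, 95% interval -0.13 to 0.64), with an adjusted p of 0.615 in limma and an exact two-sided permutation p of 0.0571. It kept its sign when each array was left out, with values from 0.17 to 0.31. CALR had 1 probe set, so no second reading was available.

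CANX had the most probe sets, 6, and all of them had lower means with corticosteroid. The second brightest gave -0.79 (SE 0.34) and the third -0.39 (SE 0.14), with adjusted p-values of 0.524 and 0.479 in limma. On the third the groups did not overlap, its levels being 5.36, 5.32, 5.15 and 5.52 on corticosteroid arrays, against 5.58, 5.68, 5.68 and 5.96 on control arrays, and control replicate 2 did not stand out. The other 3 were below the filter level of 5.272. They gave -0.15 (SE 0.14, with overlap between groups), -0.24 (SE 0.14, with overlap) and -1.01. The last, with an SE of 0.19, had levels from 3.99 to 4.67 on corticosteroid arrays and from 4.84 to 5.54 on control arrays, and its adjusted p was 0.515 in limma with no filter on dim probe sets. A dim PDIA3 probe set gave -0.15 (SE 0.13) and a dim PDIA4 probe set 0.05 (SE 0.14). Dim probe sets read close to the low end of the array, where differences of log2 values are least certain. Over all 8 genes, 12 of the 13 tested probe sets had lower means with corticosteroid. At an unadjusted p under 0.05, 5 of the 13 were lower, against 4.71% of all probe sets tested. The groups were separate, with corticosteroid lower, on 3 of the 13, against 2.51%. Both counts come from HSP90B1, HYOU1 and CANX alone. With the dim probe sets included, 6 of 18 were lower at an unadjusted p under 0.05, against 4.33% of all 23935.

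**Figure D2:**
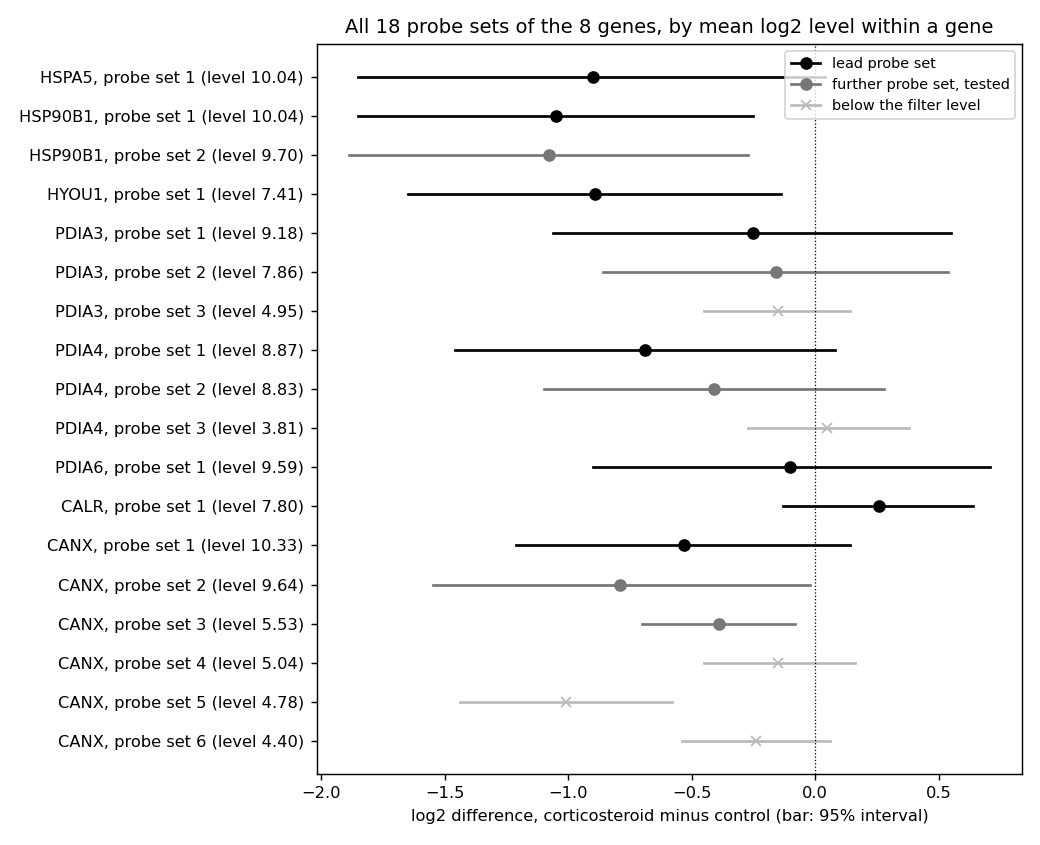
Log2 difference, corticosteroid minus control, of all 18 probe sets (point) with its 95% interval from limma (bar), 4 arrays against 4, in order of mean log2 level within each gene. The intervals of the lead probe sets of HSP90B1 (-1.85 to -0.25) and HYOU1 (-1.65 to -0.14) lie below 0 before any adjustment for multiple tests. So do those of HSP90B1 probe set 2 (-1.89 to -0.27) and of CANX probe sets 2 (-1.55 to -0.02), 3 (-0.7 to -0.08) and 5 (-1.44 to -0.58, below the filter level). The interval of CALR reaches from -0.13 to 0.64.

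Single arrays carried much of the change. When arrays were left out one at a time, the median difference over the 8 genes was lowest at -0.80 (corticosteroid replicate 1 left out) and highest at -0.34 (control replicate 2 left out). Without control replicate 2, 5 of the 8 means were lower, against 45.5% of all genes, and only HSP90B1 was lower at an unadjusted p under 0.05, against 3.81% of all genes. That count was also 1 without corticosteroid replicate 3, against 2.53% of all genes, and 1 without corticosteroid replicate 4, against 2.05%. It was 5 without corticosteroid replicate 1, where the share over all genes was also higher, at 5.48%. With both control replicate 2 and corticosteroid replicate 4 left out it was 0, against 2.44% of all genes, and the median difference was -0.22. HSP90B1 was lowest at -1.28 with corticosteroid replicate 2 left out, and at -0.80 with control replicate 2 left out it kept the largest share of its difference among the 7 genes with lower means. HSPA5 ran from -1.12 to -0.44 and CANX from -0.74 to -0.32. The smallest adjusted p of any of the 8 genes in limma when 1 array was left out was 0.353, for HSP90B1, whose values over the settings tried, rows as deposited aside, reached 0.790.

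**Figure D3:**
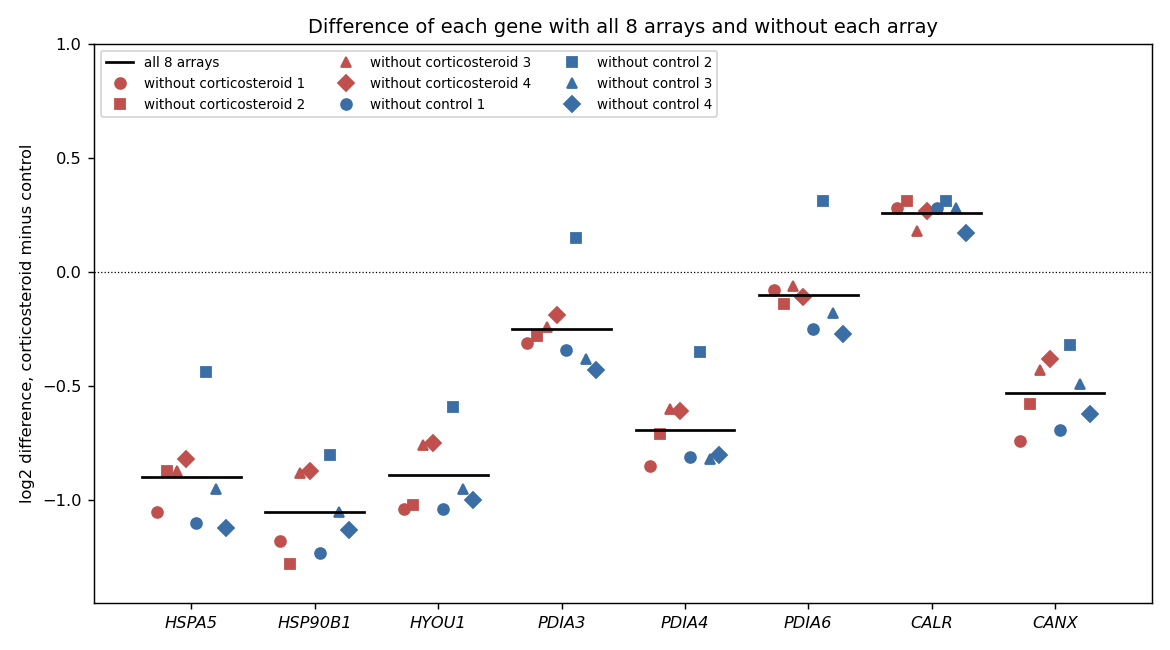
Log2 difference, corticosteroid minus control, of each gene's lead probe set with all 8 arrays (black line) and with each corticosteroid (red) or control (blue) array left out, 1 symbol shape per replicate number. Leaving out control replicate 2 (blue square) gives the highest value for each of the 7 genes with lower means, and takes PDIA3 to 0.15 and PDIA6 to 0.31.

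Control replicate 2 stood 1.00 (HSP90B1), 1.20 (HYOU1), 1.39 (PDIA4), 1.61 (PDIA3), 1.64 (PDIA6) and 1.85 (HSPA5) log2 units above the mean of the other controls. For CANX the excess was 0.83 and for CALR 0.20. That array was the highest of the 8 for 21.1% of all genes, and 3.13% of genes had a larger excess on it than HSPA5. That share was 3.96% for PDIA6, 4.05% for PDIA3, 5.35% for PDIA4 and 6.84% for HYOU1. For HSP90B1 it was 8.9%, for CANX 10.9% and for CALR 31.7%. At the other end, corticosteroid replicate 4 was the lowest array for 4 of the genes and control replicate 4 for 3, PDIA3, PDIA6 and CALR. Corticosteroid replicate 3 was lowest for PDIA4.

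The other genes of ER folding shared the high reading of control replicate 2 in part. Among ER co-chaperones that array was the highest of the 8 for 5 of 9 genes tested, against 21.1% of all genes. The same held for 8 of 12 thiol and proline enzymes and for 3 of 3 glycan trimming genes. Its median excess over the other controls was 0.47, 0.65 and 0.58 log2 units for these lists, in that order. For the 8 ER genes it was 1.29. The median difference of 9 tested ER co-chaperones and partners was -0.38. Lower means were found for 7, and 2 were lower at an unadjusted p under 0.05, against 3.90% of all genes. These 2 were the canopy family protein CNPY2 at -0.84 (SE 0.23) and SEC63 at -0.53 (SE 0.20), a translocation-associated J-domain protein. CNPY2 had levels of 8.94, 9.09, 8.08 and 8.75 on corticosteroid arrays, against 9.72, 9.58, 9.42 and 9.49 on control arrays. The groups did not overlap for CNPY2 or for SEC63, 2 of the 9, against 2.02% of all genes lower without overlap. For CNPY2 control replicate 2 was within the range of the other controls. The J-domain protein DNAJB9 differed by 0.22 (SE 0.26). Adjusted p-values in limma were 0.469 for CNPY2, 0.482 for SEC63 and 0.778 for DNAJB9. Without control replicate 2 the median of this list was -0.02, while CNPY2 stayed at -0.83.

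Among 12 further thiol and proline enzymes, 9 had lower means and the median difference was -0.24, which became 0.06 without control replicate 2. SERPINH1, the collagen chaperone, had the largest difference of this list, -1.24 (SE 0.44, adjusted p = 0.479 in limma). Its levels were 9.44, 9.45, 7.92 and 8.83 on corticosteroid arrays, against 9.96, 11.03, 10.38 and 9.22 on control arrays, so that control replicate 4 lay below 2 corticosteroid arrays. The thioredoxin-like TMX3 differed by -0.34 (SE 0.18), TXNDC12 by 0.30 (SE 0.21) and the sulfhydryl oxidase QSOX1 by 0.25 (SE 0.16).

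Of the 20 translocation and N-glycosylation genes tested, 16 had lower means, with a median difference of -0.16. Among the 20, 1 was lower at an unadjusted p under 0.05, against 3.90% of all genes, and 1 higher, against 5.27%. Control replicate 2 was the highest array for 12 of the 20, and without it 13 had lower means and the median was -0.09. The signal recognition particle receptor subunit SRPRA differed by -0.47 (SE 0.20) and the oligosaccharyltransferase STT3A by -0.38 (SE 0.20). Higher means were found for 2 subunits of the translocon-associated protein complex. SSR4 differed by 0.76 (SE 0.23, adjusted p = 0.479 in limma) and SSR2 by 0.26 (SE 0.12). SSR2 was the 1 gene of the 20 higher without overlap between groups, against 3.40% of all genes. Of the 3 glycan trimming genes tested, the glucosidase II catalytic subunit GANAB differed by -0.50 (SE 0.21), its partner subunit PRKCSH by 0.20 (SE 0.23) and the cargo lectin LMAN2 by 0.01 (SE 0.18).

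Genes of ER-associated degradation were evenly divided, with 5 of 10 lower and a median difference of -0.01. ERLEC1, a lectin of that pathway, was higher by 0.47 (SE 0.16, adjusted p = 0.479 in limma), with levels of 9.15, 9.08, 9.24 and 9.14 on corticosteroid arrays, against 8.47, 8.90, 8.64 and 8.72 on control arrays. It was the 1 gene of the 10 higher without overlap between groups, against 3.40% of all genes. FAF2 differed by 0.20 (SE 0.15), the segregase VCP by -0.31 (SE 0.27) and DERL1 by -0.18 (SE 0.18).

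Of 19 listed sensors and transcription factors of the unfolded protein response, 12 were tested. The sensors ERN1, EIF2AK3 and ATF6 were not among them. With all arrays 6 of the 12 had lower means, the median difference was 0.02, and control replicate 2 was the highest array for 1 of them. Without control replicate 2, 8 of the 12 had lower means and the median was -0.06. XBP1, which activates many ER chaperone genes, differed by -0.16 (SE 0.24), ATF4 by -0.05 (SE 0.13) and DDIT3 (CHOP) by 0.13 (SE 0.38), genes named here for these roles after their values were seen. The stress factor ATF3 differed by -1.71 with an SE of 1.08, its controls ranging from 4.94 to 10.47. Asparagine synthetase (ASNS) differed by 0.91 (SE 0.70), CEBPB by 0.62 (SE 0.27) and the initiation factor subunit EIF2S1 by -0.21 (SE 0.20). None of the genes of these ER lists passed in limma, with adjusted p-values of 0.469 or more.

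Chaperones of the cytosol and of mitochondria were set beside the ER genes. Of 21 cytosolic chaperones tested, 15 had lower means, with a median difference of -0.31 and of -0.39 without control replicate 2. At an unadjusted p under 0.05, 7 of the 21 were lower, against 3.90% of all genes, and 0 higher, against 5.27%. The limma adjusted p-values of the 21 were 0.479 or more. Their median level on control replicate 2 was 0.27 below their own mean over the 8 arrays, whereas that of the 8 ER genes was 1.31 above it. On corticosteroid replicates 3 and 4 the median was -0.74 and -0.47 for cytosolic chaperones and -0.56 and -0.65 for the ER genes. HSPA4, a cytosolic exchange factor, differed by -1.01 (SE 0.34), without overlap between groups, and the co-chaperone DNAJA4 by -1.67 (SE 0.54). Of the 21, 2 were lower without overlap, HSPA4 among them, against 2.02% of all genes. ST13 and CDC37 each differed by 0.17. Of 7 mitochondrial chaperones, 4 had lower means and 3 higher ones, against 46.0% lower among all genes. Their median difference was -0.31, and -0.41 without control replicate 2. At an unadjusted p under 0.05, 2 were lower, against 3.90% of all genes, and 1 higher, against 5.27%. Their median centred level was 0.03 on corticosteroid replicate 3, -0.18 on corticosteroid replicate 4 and -0.08 on control replicate 2. HSPD1 differed by -0.91 (SE 0.23), HSPE1, its co-chaperonin, by -0.49 (SE 0.17) and TRAP1 by 0.52 (SE 0.20), each without overlap between groups. Their adjusted p-values in limma were 0.469, 0.479 and 0.482. Thus 2 of the 7 were lower without overlap, against 2.02% of all genes, and 1 higher, against 3.40%. LONP1 differed by 0.20 (SE 0.17). Whether the lists differ from each other was not tested.

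**Figure D4:**
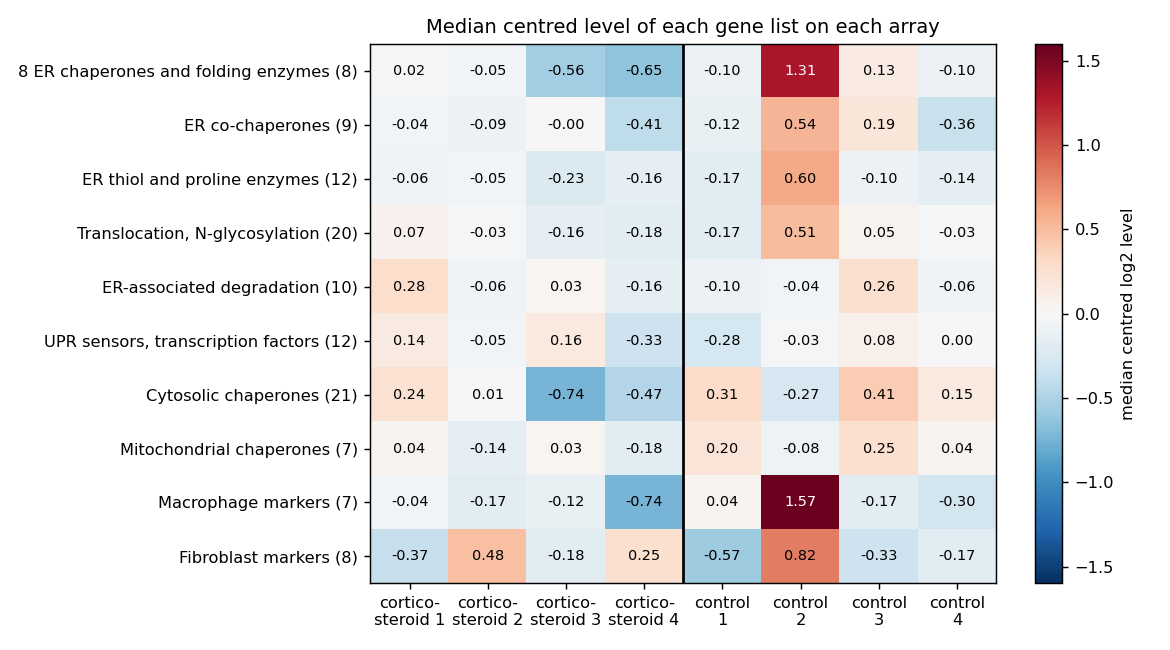
Median over the tested genes of a list (number in brackets) of the log2 level centred on each gene's mean over the 8 arrays, for each corticosteroid array (left) and control array (right); red is above 0 and blue below. On control replicate 2 the 8 ER genes read 1.31 and the macrophage markers 1.57, and the cytosolic chaperones read -0.27.

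In the calcium-handling proteins of the sarcoplasmic reticulum, 3 of 9 means were lower and the median difference was 0.19. The calcium pump of slow fibres ATP2A2 differed by -1.07 (SE 0.26), without overlap between groups, and its inhibitor PLN by -1.34 (SE 0.38). ATP2A2 was the 1 gene of the 9 lower without overlap, against 2.02% of all genes. The pump of fast fibres ATP2A1 differed by 1.30 (SE 0.58), with a level of 8.82 on control replicate 2 against 10.96 to 11.88 on the other controls, and the calcium-binding protein HRC differed by 0.92 (SE 0.40). Without control replicate 2 the difference of ATP2A1 was 0.63. Their adjusted p-values in limma were 0.469 for ATP2A2 and PLN and 0.524 for ATP2A1 and HRC.

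Many macrophage and fibroblast markers were also highest on control replicate 2. The summed linear signal of the 7 macrophage markers on the array (of 10 listed) was 609 to 1130 on corticosteroid arrays and 875 to 2950 on control arrays. On control replicate 2 it was 2953, and the other controls had 1323 or less. That array was highest for 6 of these 7 markers, among them AIF1 at 9.62 and CD163 at 9.67 (marker genes were picked for naming after their values were seen). C1QA was only just highest there, at 7.85 against 7.12 to 7.75 on the other controls, as was C1QC, at 9.45 against 8.26 to 9.27. MARCO was not, at 6.20 against 6.02 to 6.57. The median difference of the list was -0.39, or -0.04 without control replicate 2. For 8 of 10 fibroblast markers the sum was 4880 to 9310 on corticosteroid arrays and 4520 to 13000 on control arrays, again highest on control replicate 2. That array was highest for 6 of the 8, such as COL1A2 at 10.13 against 7.63 to 8.44 on the other controls. COL3A1 was lowest there, at 6.48 against 7.01 to 7.70, and POSTN read 8.54 against 7.93 to 8.75. Unlike the macrophage list, the fibroblast list had a positive median difference, 0.14, with 5 means higher and 3 lower with corticosteroid. Without control replicate 2 that median was 0.44. Of the 2 regeneration markers tested, MYF5 read 7.88 on control replicate 2 and 5.15 to 6.18 on the other controls, and MYOD1 read 8.39 on control replicate 2 and 6.99 to 9.11 on the other controls. The part of these cells in the ER chaperone levels was not tested.

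For the 8 endothelial markers the summed signal was 1980 to 2510 on corticosteroid arrays and 1950 to 2290 on control arrays. For the 4 plasma and B cell markers on the array it was 215 to 259 on corticosteroid arrays and 193 to 257 on control arrays, and for 6 T and NK cell markers 138 to 156 on corticosteroid arrays and 136 to 177 on control arrays. The 5 adipocyte markers varied widely in both groups, from 2280 to 10800 on corticosteroid arrays and from 3600 to 9950 on control arrays. Erythrocyte markers, 3 of 7 on the array, summed to 196 to 319 on corticosteroid arrays and 301 to 827 on control arrays, with control replicate 3 highest. Sums of 3 Schwann cell markers were 324 to 562 on corticosteroid arrays and 294 to 490 on control arrays. Those of 3 regeneration markers were 277 to 609 on corticosteroid arrays and 225 to 626 on control arrays. The 3 neutrophil markers on the array were all below the filter level. The plasma cell gene JCHAIN, of a cell type rich in ER, read 4.73 to 5.58 on corticosteroid arrays and 4.77 to 6.34 on control arrays, the highest being control replicate 2. Only 2 plasma and B cell markers and 1 T and NK cell marker, CD3D, were above the filter level.

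The genes whose profile over the 8 arrays lay closest to the mean profile of the ER genes were SMAP2, MYD88, PLEKHB2, PTBP1 and HDAC1, by the root mean square difference of centred log2 levels over 5398 other genes. That difference was 0.129 for SMAP2, a regulator of vesicle coats, 0.134 for MYD88, an adaptor of Toll-like receptors, and 0.137 for the other three, against a median of 0.582 over all genes. MYD88 had levels of 6.19, 6.37, 5.84 and 5.78 on corticosteroid arrays, against 6.45, 7.37, 6.34 and 6.11 on control arrays, highest on control replicate 2 and lowest on corticosteroid replicates 3 and 4. Its difference was -0.52 (SE 0.27, adjusted p = 0.559 in limma), and -0.25 without control replicate 2. The splicing regulator PTBP1 differed by -0.49, and by -0.09 without control replicate 2, and the histone deacetylase HDAC1 by -0.37 and -0.05. PLEKHB2 differed by -0.64, and by -0.37 without that array. Among the ER genes themselves PDIA4 lay closest to their mean profile (0.155) and CALR farthest from it (0.559), each being part of that mean.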

How the data were processed

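Per the labels, biotin-labelled cRNA of 8 biceps femoris samples was hybridised to 1-colour Affymetrix porcine arrays. The authors deposited log2 expression levels per probe set. MAS5 was used, per the submitters' processing notes, and any scaling between arrays is not named there. The number of arrays limits the precision (median SE of a log2 difference 0.219).

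Corticosteroid values were re-assigned to the probe IDs sorted as text with full stops ignored (9389 rows, 39.1%, changed place, 0 tied IDs), and control columns stayed as listed. That order was taken from earlier work on these data. Probe sets were named from the platform annotation (10069 with 1 symbol, 198 with several, 13732 with none). All 8 gene IDs carry the same symbol in the current porcine gene table. No genome build is named, so no coordinates or sequences are given.

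After leaving out 64 reporter probe sets, limma 3.58.1 in R 4.3.3 (eBayes with an intensity trend) was fitted to the 14361 probe sets with a mean log2 level above the 40th percentile (5.272). It was tested on simulated data with known changes. A gene was represented by its brightest probe set. Exact permutation tests used all 70 regroupings. Tables were made in Python 3.11.15 (numpy 2.4.6, pandas 2.3.3). Genes to be named were the 8 members, up to 2 lower and 2 higher genes of smallest p per pathway list (10 lists, counting the members, beside 11 of cell markers), the 5 genes of most similar profile, NR3C1 and FKBP5. Members and lists were chosen with earlier results of these data known. Alternatives covered the row order, a replicate block, scaling, filters, variance models, weights, averaging of probe sets and leaving out arrays.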

Additional observations from a re-analysis of the deposited data

Results flagged for a closer look

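For 7 of the 36 groups of 4 arrays checked over the 18 probe sets, 1 array was separated from the others by a gap larger than Dixon's 95% critical value for 4 samples allows. Chance gives this for about 1 in 20 groups, and it was found for 6.26% of the groups over all tested probe sets. In 5 of the 7 the array was control replicate 2, which was high. PDIA4 read 10.25 there on its lead probe set, against 8.84 to 8.90 on the other controls, and 9.97 on another, against 8.63 to 8.78. PDIA3 read 10.51 on its lead probe set, against 8.76 to 9.04, and 8.91 on another, against 7.53 to 7.67. PDIA6 read 10.87, against 9.11 to 9.39. These probe sets share arrays and, in part, genes, so they are not independent. Over all tested probe sets control replicate 2 stood out as high for 1.92%.

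The other 2 concerned dim CANX probe sets below the filter level. On one, corticosteroid replicate 2 read 5.17, against 4.89 to 4.92 on the other corticosteroid arrays. On the other, control replicate 1 read 4.16, against 4.61 to 4.67 on the other controls.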

How the results depend on the processing

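With the corticosteroid rows as deposited, 4 of the 8 genes passed after adjustment (4 were lower at an unadjusted p under 0.05), with 5454 probe sets called (38.0%) and 6101 at an unadjusted p under 0.05. HSPA5 then differed by -4.68, HSP90B1 by -0.88, CANX by -2.45 and CALR, with its sign turned, by -4.08. The construction of that alternative sets values of different probe sets against each other. Array weights gave PDIA3 at 0.02, PDIA6 at 0.16 and 1 gene lower at an unadjusted p under 0.05. Without control replicate 2 and corticosteroid replicate 4, PDIA3 was at 0.22, PDIA6 at 0.30 and that count 0. With each array left out, PDIA3 ran from -0.43 to 0.15, PDIA6 from -0.27 to 0.31, the count of lower genes from 1 to 5, the probe sets past the adjusted threshold from 0 to 1 (1 without control replicate 3) and those at an unadjusted p under 0.05 from 892 to 1783. This last count was 832 over rows at the same place in both orders and 2160 with no filter, where fewer and more probe sets are tested. A dim PDIA4 probe set gave 0.05. The cause of the other changes was not tested. With every setting tried other than the rows as deposited, 0 of the 8 genes passed after adjustment in limma. In the main fit 2 were lower at an unadjusted p under 0.05. Averaging the probe sets of each gene made this count 3, with CANX at -0.52 added. The median difference over the 8 genes was then -0.43, and PDIA4 was at -0.35. Rows at the same place hold only PDIA3 and PDIA6, and single further probe sets give no count over the genes. Whether same-numbered arrays were paired was not settled. The correlation of their deviations from the group means ran from -0.246 to 0.11, and 2 of 4 corticosteroid arrays correlated best with their own number. A block for the replicate number changed the SE from 0.36 to 0.27 for HSP90B1, from 0.34 to 0.26 for HYOU1 and from 0.17 to 0.19 for CALR. With the replicate number as a block, 2 genes were lower at an unadjusted p under 0.05, 0 passed after adjustment, and 1332 probe sets had an unadjusted p under 0.05. Levels near the low end of the array limit what the dim probe sets can show.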
